A study of Arabidopsis thaliana with 12 samples.

Results

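Transposable element (TE) genes that lie on the chromosome arms of Arabidopsis thaliana were followed across wild-type seedlings, a CMT2 CMT3 double mutant and 4 transgenic lines of that mutant. A TE gene is a locus annotated as a gene whose sequence belongs to a transposon, usually one that encodes a transposon protein. The arms were taken as everything outside a window around each centromere, from 12.5 to 17.5 Mb on chromosome 1, 1.5 to 6.0 Mb on chromosome 2, 11 to 16 Mb on chromosome 3, 2.0 to 5.5 Mb on chromosome 4 and 9.5 to 14.5 Mb on chromosome 5. Of 3901 TE genes listed, 944 started on the arms, 2956 started inside the windows and 1 was not analysed here. The 944 were spread as 199, 206, 159, 213 and 167 over chromosomes 1 to 5.

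RNA was sequenced from 10-day-old whole seedlings grown on medium with 1% sucrose at 22 °C under 16 h of light and 8 h of dark, with 2 libraries in each of 6 groups. V1200R/cc lines 9 and 15 carried a genomic CMT2 transgene with the V1200R amino acid change, and CMT2/cc lines 1 and 19 carried the unchanged genomic CMT2 transgene. Both transgenes ran from the native CMT2 promoter with a FLAG tag at the C terminus, and each line came from an independent transformation of cc. The cc plants carried insertions in both CMT2 (cmt2-7) and CMT3 (cmt3-11) in the Col-0 background, so all 4 transgenic lines shared these insertions, and Col-0 was the wild type.

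CMT2 and CMT3 are plant DNA methyltransferases of the chromomethylase family, which bind histone H3 methylated at the mark of silent chromatin and methylate cytosines nearby. CMT3 is best known for methylating the CHG context (H is A, C or T) and CMT2 for methylating CHH in long TEs near centromeres, and loss of both is known to release transcription of some TEs. Retrotransposons of the Copia and Gypsy superfamilies carry long terminal repeats from which they are transcribed, whereas domesticated TE genes, such as the MUSTANG genes, are TE-derived genes that plants have kept and express.

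Terminal direct repeats are shown for members on which the comparisons turned, because transcription of such elements starts there and because CHG is the context in which CMT3 acts. Each line gives the first 160 bases of the repeat on the 5′ side of the gene, 5′ to 3′ on the strand of the gene, from the RefSeq TAIR10.1 sequence, with every CHG trinucleotide on that strand in capitals. The ends of these repeats were set by alignment and need not be the exact ends of a long terminal repeat. AT4G20365, known as Copia47, has its stretch at chr4:10992996-10993155 (+), AT1G53810 at chr1:20085161-20085320 (+) and AT5G19097 at chr5:6407899-6408058 (-), and V1200R/cc had less of these transcripts than CMT2/cc. AT3G26483 at chr3:9697365-9697524 (-), AT2G20460 at chr2:8820727-8820886 (-) and AT5G42645 at chr5:17095515-17095674 (-) were expressed in all V1200R/cc libraries.
AT4G20365: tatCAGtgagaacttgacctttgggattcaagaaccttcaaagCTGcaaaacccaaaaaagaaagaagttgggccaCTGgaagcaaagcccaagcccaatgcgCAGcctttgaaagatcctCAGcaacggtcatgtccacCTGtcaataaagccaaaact
AT1G53810: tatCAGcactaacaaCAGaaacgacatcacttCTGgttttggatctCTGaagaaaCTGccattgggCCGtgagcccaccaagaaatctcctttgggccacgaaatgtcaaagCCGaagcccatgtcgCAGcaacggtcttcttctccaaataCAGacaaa
AT5G19097: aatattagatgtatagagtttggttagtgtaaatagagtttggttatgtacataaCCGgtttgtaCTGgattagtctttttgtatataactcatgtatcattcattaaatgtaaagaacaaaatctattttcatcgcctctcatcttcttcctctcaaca
AT3G26483: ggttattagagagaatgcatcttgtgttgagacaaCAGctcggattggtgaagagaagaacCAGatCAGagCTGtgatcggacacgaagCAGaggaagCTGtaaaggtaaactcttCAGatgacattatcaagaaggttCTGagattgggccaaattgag
AT2G20460: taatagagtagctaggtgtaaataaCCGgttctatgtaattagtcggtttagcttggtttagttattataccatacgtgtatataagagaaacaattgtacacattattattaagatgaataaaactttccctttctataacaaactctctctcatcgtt
AT5G42645: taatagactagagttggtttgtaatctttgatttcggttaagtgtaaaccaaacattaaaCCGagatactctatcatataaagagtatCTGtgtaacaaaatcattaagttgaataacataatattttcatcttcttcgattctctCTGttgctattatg
The full repeats were 382 bases in Copia47, 318 in AT1G53810, 216 in AT5G19097, 512 in AT3G26483, 174 in AT2G20460 and 160 in AT5G42645. Counted on both strands, the repeat of Copia47 held 14 CG, 29 CHG and 110 CHH cytosines, that of AT1G53810 22, 32 and 89, and that of AT3G26483 12, 40 and 154. The repeats of AT5G19097, AT2G20460 and AT5G42645 held 6, 3 and 6 CHG cytosines.

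Copia47 was also measured by PCR in the study, and its primers are printed because each had 1 exact match in the genome, which ties the name to 1 locus.
Copia47-F: cagagcctggtttgataagt
Copia47-R: ctctgccaatagattcgataa
The forward primer lies at chr4:10996594-10996613 (+) and the reverse primer at chr4:10996754-10996774 (-), both inside AT4G20365.

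Transcript levels are given in TPM, which scales the transcripts of each library to a common total,, as estimated by StringTie in each library, and a level at 0 is called listed at 0 because such values can also come from the allocation of reads between overlapping features. The libraries held between 929522229 and 1452952086 aligned bases. CMT2 itself (AT4G19020) was at 112 and 127 TPM in V1200R/cc line 9, 146 and 159 TPM in V1200R/cc line 15, 114 and 123 TPM in CMT2/cc line 1, with 79.6 and 80.8 TPM in its line 19, against 1.70 and 1.99 TPM in cc and 15 and 13.3 TPM in Col-0. CMT3 (AT1G69770) had no lower level in cc, with 16.4 and 14.0 TPM, against 12.9 and 11.5 TPM in Col-0, while the 8 transgenic libraries were between 4.72 and 7.02 TPM. A value for the whole gene cannot separate the parts before and after the insertion, so it does not check the label, and directions drawn from cc rest on the libraries labelled cc. Seedling markers fitted the label, with summed levels of 28522 to 34395 TPM for 3 green tissue genes and 1282 to 2374 TPM for 4 root genes, and no more than 1.42 TPM for 2 pollen genes, 0.400 TPM for 2 flower genes and 12.5 TPM for 3 seed genes. No label ties the replicates to separate cultures, so p-values measure the spread between libraries, and in whole seedlings more cells that express a TE and more RNA per cell cannot be told apart.

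TE transcripts from the arms were most abundant in cc. The summed level of the 944 members was 180.8 and 213.5 TPM in V1200R/cc line 9, 190.1 and 205.4 TPM in V1200R/cc line 15, 204.6 and 207.6 TPM in CMT2/cc line 1, 251.6 TPM in each library from CMT2/cc line 19, 447.5 and 454.8 TPM in cc, and 184.3 and 189.8 TPM in Col-0. The cc libraries did not overlap any other group, and line 19 lay above the other 3 transgenic lines. Members at 1 TPM or more numbered 27 and 35 in V1200R/cc line 9, 28 and 33 in V1200R/cc line 15, then 33 and 37 in CMT2/cc line 1 (36 and 37 in its line 19), 75 and 68 in cc, and 25 and 27 in Col-0. Of the 944, 452 were listed at 0 in all 12 libraries. The TE genes inside the windows summed to 187 to 247 TPM in V1200R/cc, 216 to 269 TPM in CMT2/cc, 436 and 520 TPM in cc, and 231 and 218 TPM in Col-0.

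**Figure D1:**
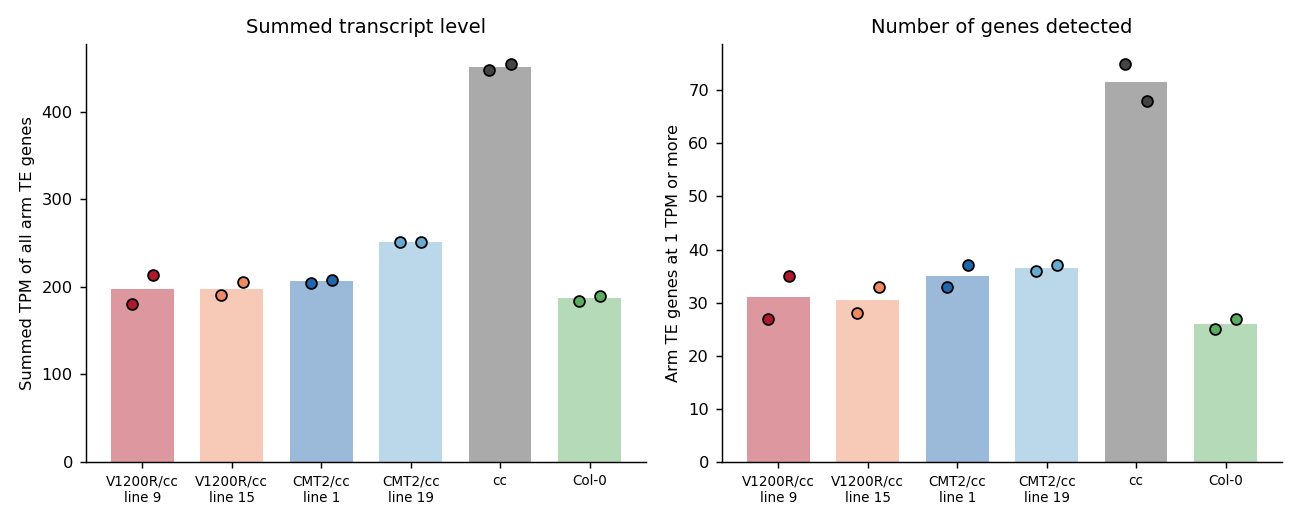
Summed TPM of the 944 arm TE genes (left) and the number at 1 TPM or more (right) in each of the 12 libraries. Points are libraries and bars are means of 2 libraries; the cc libraries, at 447.5 and 454.8 TPM, stand above the other 5 groups.

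A member could be tested if it reached 0.5 TPM in at least 2 of the 12 libraries, which 115 of the 944 did (12.2%), against 82 of the 2956 TE genes inside the windows (2.77%). Differences are in log2(TPM + 0.5), tested with limma over all 23614 features that passed this filter, and a member was called at a Benjamini-Hochberg adjusted p below 0.05 and a difference of at least 1. The offset of 0.5 makes these differences understate the change of genes at low levels.

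Arm members tested were called higher in cc than in wild type more often than all features that passed the same filter. Of the 69 members that passed the filter without the cc libraries, 20 were called higher than in Col-0 (29%), with a median difference of 0.33. The share of all features that passed without cc was not computed. Shares of these 69, here and below, are therefore not set against features at large. Over all 115, in cc 59 of the 115 were called higher than in Col-0 (51.3%), against 1.82% of all features tested, and none was called lower, against 0.195% of all features. At an unadjusted p below 0.05 in limma, 67 were higher and 1 was lower. The median difference of the 115 was 1.27, against 0.02 over all features. The filter set part of this share, since the other 46 passed only through the cc libraries, which had to be high in them, and 39 of these 46 were called. Without cc replicate 1 the count of 59 was 16 and without cc replicate 2 it was 20, but it was 55 in each case when the features tested were kept, and with only the libraries of cc and Col-0 in the fit it was 32. Inside the windows 42 of 82 TE genes were called higher (51.2%) and 1 lower, and the difference between arms and windows was not tested.

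The 59 were low or silent in wild type. Of the 59, 24 were listed at 0 in both Col-0 libraries and 49 were below 0.1 TPM in both. In cc 12 of the 59 averaged below 1 TPM, 36 between 1 and 5 TPM, and 11 at 5 TPM or more.

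**Figure D2:**
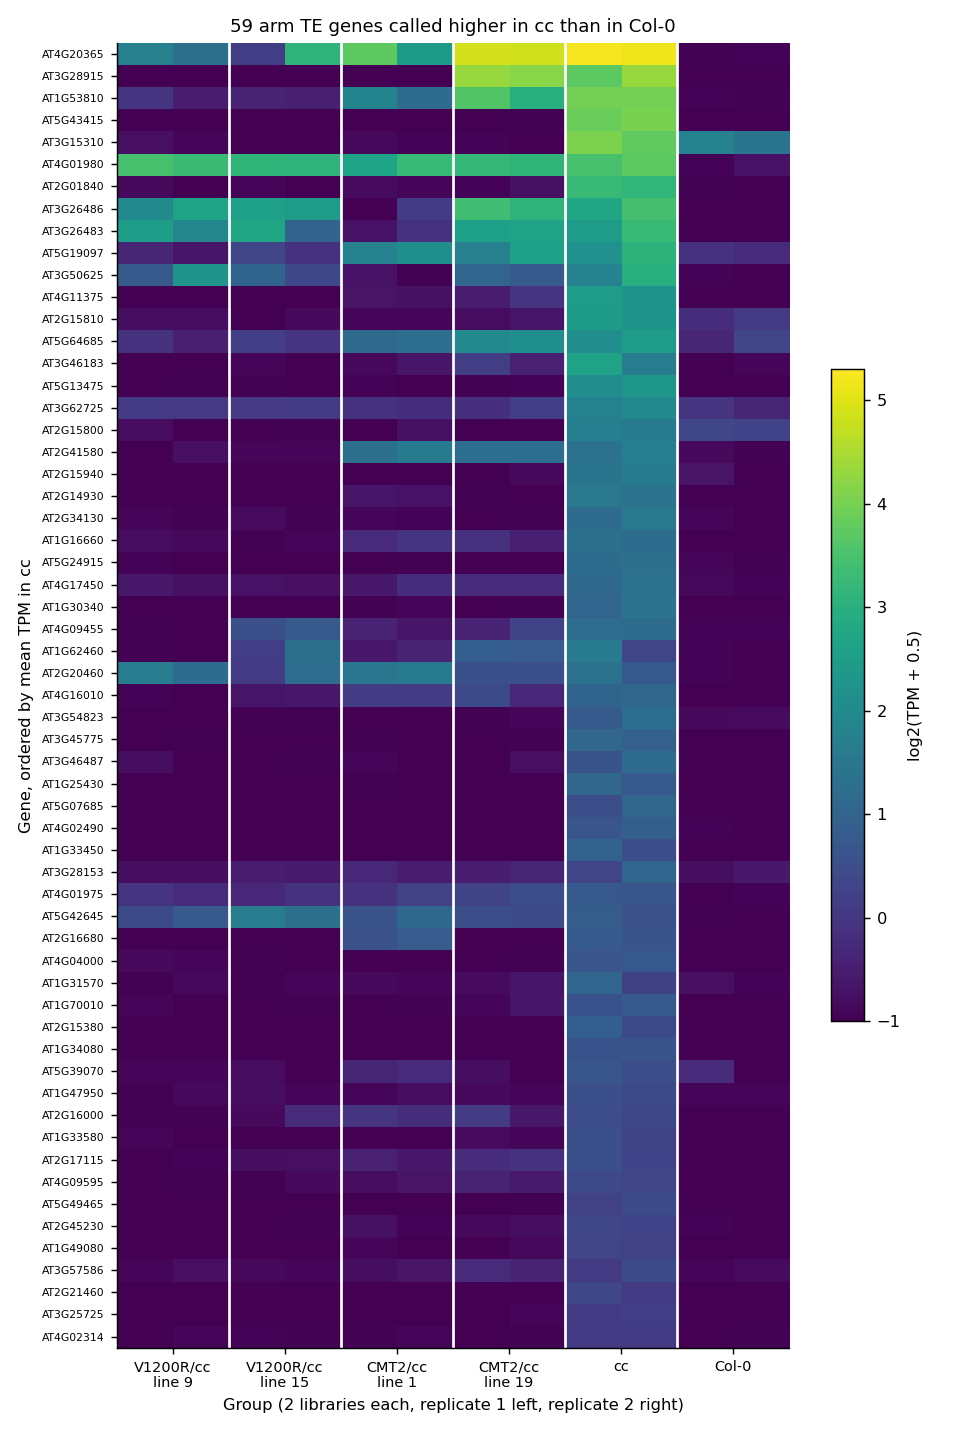
Level of each of the 59 arm TE genes that cc raised above Col-0 by the call, as log2(TPM + 0.5), with genes in rows ordered by their mean in cc and the 12 libraries in columns. Most rows are dark in Col-0 and in the transgenic lines, and AT4G01980 stays clearly lighter than in Col-0 in all 4 lines. AT2G20460 and AT5G42645 also stay above their Col-0 level in all 4 lines, but low on the scale.

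Copia47 (AT4G20365, chr4:10993391-10998715), a Copia retrotransposon, had the largest difference. Its level was 36.4 and 34.8 TPM in cc, against 0.0158 and 0.0237 TPM in Col-0, a difference of 6.12 ± 0.76 (SE; limma adjusted p = 0.0017). The 2 cc libraries lay far above both wild-type libraries, in which the element was all but silent. AT1G53810 (chr1:20085584-20090152) was at 15.3 TPM in both cc libraries, against 0.0184 and 0.0138 TPM in Col-0, a difference of 4.94 ± 0.27 (limma adjusted p = 5.5e-06). AT3G28915 (chr3:10917551-10922630) had 12.6 and 19.6 TPM in cc, whereas both Col-0 libraries listed it at 0.

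Several members were measured almost entirely in cc. AT5G43415 (chr5:17440088-17445889) had 14.0 and 15.8 TPM in cc, was listed at 0 in Col-0 and was no higher than 0.0111 TPM in any transgenic library. AT2G01840 (chr2:373125-378447) was at 9.19 and 8.42 TPM in cc, against 0.0158 and 0 TPM in Col-0, and no higher than 0.106 TPM in the lines. AT5G13475 (chr5:4320277-4326003), with 3.77 and 4.50 TPM in cc against 0.00736 and 0 TPM in Col-0, and AT2G14930 (chr2:6422634-6426899), with 2.36 and 2.13 TPM in cc against 0 TPM in both Col-0 libraries, followed the same pattern at lower levels. These genes were on in cc and all but off in the wild type and in lines of either transgene.

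AT4G11375 (chr4:6914885-6919316) had 5.10 and 4.10 TPM in cc, 0.114 to 0.489 TPM in CMT2/cc and 0 TPM in the Col-0 and V1200R/cc libraries. AT3G46183 (chr3:16957635-16962212) was at 5.68 and 2.62 TPM in cc, against 0 and 0.0276 TPM in Col-0. AT3G50625 (chr3:18791543-18796042) was at 2.97 and 7.34 TPM in cc, against 0.0187 and 0 TPM in Col-0. Its call was lost in 3 of 34 alternatives, among them the fit without cc replicate 2. AT2G34130, annotated as MEE19, was at 1.80 and 2.41 TPM in cc, against 0.0293 and 0.00731 TPM in Col-0, and has near-identical sequence elsewhere over its whole length, so reads may have been shared with other copies. RE2 (AT4G02960), a Copia retrotransposon, was at 0.525 and 0.518 TPM in cc, against 0.0570 and 0.0427 TPM in Col-0, and was not called.

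Some called members already had measurable transcript in wild type. AT3G15310 (chr3:5152099-5153642) was at 16.3 and 13.1 TPM in cc, against 3.0 and 2.20 TPM in Col-0. The neighbours AT2G15800 and AT2G15810, which lie 80 bases apart on chromosome 2, were at 2.82 and 2.51 TPM and at 4.89 and 4.29 TPM in cc, against 0.776 and 0.697 TPM and 0.381 and 0.542 TPM in Col-0. In each of these genes both cc libraries exceeded both Col-0 libraries, and the call of AT2G15800 was lost without either cc library or without Col-0 replicate 2 (limma adjusted p up to 0.166). Of the 59, 4 further pairs lay within 50000 bases of each other, AT1G33450 and AT1G33580, AT2G15940 and AT2G16000, AT3G26483 and AT3G26486, and AT4G01975 and AT4G01980.

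Every transgenic line had members called lower than in cc, and no member was called higher. Of the 69 members that passed the filter without the cc libraries, those called lower numbered 15 in V1200R/cc line 9 (21.7%), 13 in V1200R/cc line 15 (18.8%), with 10 in CMT2/cc line 1 (14.5%) as well as 6 in CMT2/cc line 19 (8.7%), and the median differences were -0.23, -0.19, -0.11 and -0.17 in this order. The share of all features that passed without cc was not computed. Over all 115, in V1200R/cc line 9, 56 were called lower than in cc (48.7%), against 2.08% of all features, with a median difference of -1.04. In V1200R/cc line 15, 53 were called lower (46.1%), against 2.29% of all features, with a median of -0.96. In CMT2/cc line 1, 45 were called lower (39.1%), against 1.67% of all features, with a median of -0.68, and in CMT2/cc line 19, 40 were called lower (34.8%), against 1.52%, with a median of -0.55. The medians over all features were between -0.05 and -0.03. The shares of all features called higher were 0.932%, 1.56%, 0.296% and 0.191% in the same order of lines, and at an unadjusted p below 0.05 in limma 0, 2, 1 and 0 members were higher. These 4 comparisons and that of cc with Col-0 share the cc libraries, and the 46 members tested only because of them had to be high in cc, so the shares over all 115 are set in part by the filter. Without cc replicate 1 or 2 the counts were 13 and 14 in V1200R/cc line 9, 13 and 13 in V1200R/cc line 15, with 10 and 8 in CMT2/cc line 1 as well as 4 and 5 in CMT2/cc line 19, and without CMT2/cc line 19 replicate 1 that line had 24.

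The 59 members called higher in cc were low in most lines. Their median over group means was 0.0144 TPM in V1200R/cc line 9, 0.0168 TPM in V1200R/cc line 15, 0.0623 TPM in CMT2/cc line 1, 0.0698 TPM in CMT2/cc line 19, 1.58 TPM in cc and 0.00792 TPM in Col-0. Below 0.5 TPM in both libraries were 51 of the 59 in V1200R/cc line 9, 47 in V1200R/cc line 15, 47 in CMT2/cc line 1, 40 in CMT2/cc line 19, 0 in cc and 55 in Col-0. Across all 8 transgenic libraries 39 of the 59 stayed below 0.5 TPM, and 47 did so in all 4 V1200R/cc libraries. These counts describe members chosen by their level in cc, and no test was made on them.

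The fit that compared the constructs directly used no cc or Col-0 library, but the filter that chose the 115 members used all 12 libraries. In V1200R/cc 7 of the 115 members were called lower than in CMT2/cc (6.09%), against 0.898% of all features, and none was called higher, against 1.93% of all features. At an unadjusted p below 0.05 in limma, 23 members were lower and 7 were higher. The median difference of the 115 was -0.03, against -0.02 over all features. All 7 called lower were among the 69 members that passed the filter without the cc libraries, whose median difference was -0.01. The 46 members that passed only through the cc libraries held 0 calls, with a median of -0.03, and so lower the share called over all 115. The 2 libraries of each line entered as independent, although they share a transformant.

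The lower members included 5 of the 59 called higher in cc, which were 71.4% of the 7 and 8.47% of the 59. Of the 59, 11 had every V1200R/cc library below every CMT2/cc library, a pattern found in 14.2% of all features, and 0 had the opposite order, found in 14.1% of all features. Among the 59 the median difference between the constructs was -0.03 with 40 below 0, and among the other 56 members tested it was -0.01 with 31 below 0. Inside the windows 6 of 82 TE genes were lower by the same call in V1200R/cc (7.32%) and none higher.

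AT2G41580 (chr2:17339804-17343088) separated the constructs with the smallest error. It was at 0, 0.0980, 0.0443 and 0.0329 TPM in the 4 V1200R/cc libraries, against 2.00, 2.56, 1.94 and 1.92 TPM in the 4 CMT2/cc libraries, a difference of -2.26 ± 0.12 (limma adjusted p = 1.5e-05). The CMT2/cc libraries were close to the 2.03 and 2.79 TPM of cc, and the V1200R/cc libraries were close to the 0.0577 and 0.0166 TPM of Col-0. AT5G19097 (chr5:6403277-6407608) was at 0.303, 0.141, 0.744 and 0.450 TPM in V1200R/cc, against 2.96, 3.87, 2.84 and 5.39 TPM in CMT2/cc, a difference of -2.23 ± 0.25 (limma adjusted p = 0.00074). Its levels in cc were 4.07 and 7.96 TPM, against 0.430 and 0.350 TPM in Col-0.

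AT1G53810, whose repeat is printed above, was at 0.484, 0.193, 0.264 and 0.236 TPM in V1200R/cc, against 3.09 and 1.81 TPM in CMT2/cc line 1, with 11.5 and 7.27 TPM in CMT2/cc line 19, a difference of -2.74 ± 0.48 (limma adjusted p = 0.005). Every V1200R/cc library was below every CMT2/cc library, and both constructs were below the 15.3 TPM of cc. AT5G64685 (chr5:25855347-25857377) was at 0.443, 0.232, 0.621 and 0.469 TPM in V1200R/cc, against 1.75, 1.92, 3.57 and 3.89 TPM in CMT2/cc, a difference of -1.76 ± 0.25 (limma adjusted p = 0.0022). This gene overlaps a protein-coding gene, and 67.6% of it matches a near-identical stretch at chr5:13178359-13179730, so its reads may belong partly to either. AT1G53810 and AT2G41580 were the members that stayed at 0.5 TPM or more in all CMT2/cc libraries and below it in all V1200R/cc libraries.

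The remaining 3 calls depended on single libraries. Copia47 was at 2.83 and 2.01 TPM in V1200R/cc line 9 and 0.627 and 8.10 TPM in V1200R/cc line 15, against 12.9 and 4.89 TPM in CMT2/cc line 1, with 28.9 and 28.4 TPM in CMT2/cc line 19, a difference of -2.39 ± 0.72 (limma adjusted p = 0.043). The constructs overlapped at 8.10 and 4.89 TPM, and the call was lost without any 1 of 6 of the 8 libraries (limma adjusted p up to 0.108 over these fits). AT3G13270 (chr3:4285851-4288332) was at 1.26, 7.93, 0.529 and 0 TPM in V1200R/cc, against 9.24, 9.06, 6.87 and 8.41 TPM in CMT2/cc, and was already at 5.03 and 6.72 TPM in Col-0. Its difference of -2.41 ± 0.75 had a limma adjusted p of 0.048, and up to 0.120 when 1 library was left out. AT3G21050 (chr3:7375158-7376420) differed by -1.22 ± 0.38 (limma adjusted p = 0.049, up to 0.116 when 1 library was left out), with 0.0514 to 0.113 TPM in V1200R/cc against 0.0887 to 1.64 TPM in CMT2/cc. Without CMT2/cc line 19 replicate 1, V1200R/cc line 9 replicate 1 or V1200R/cc line 15 replicate 1, the count of 7 fell to 4.

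**Figure D3:**
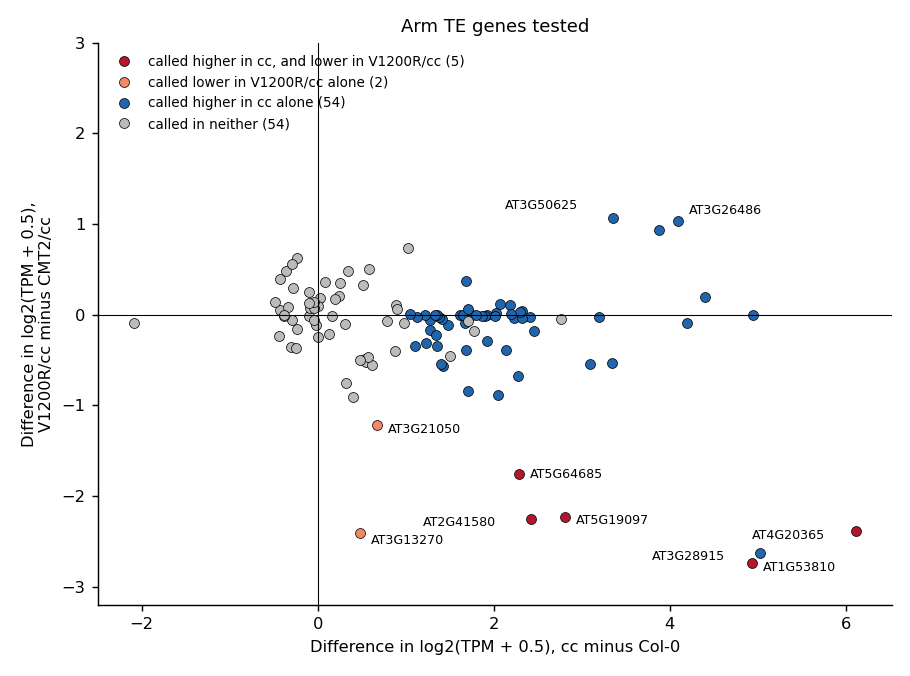
Difference between cc and Col-0 (x axis) and between V1200R/cc and CMT2/cc (y axis), both in log2(TPM + 0.5), for the 115 arm TE genes tested, each a point. The 5 red points at the lower right were called higher in cc and lower in V1200R/cc, and most points lie near 0 on the y axis.

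Against wild type, each construct left some members higher. In V1200R/cc 7 of the 115 were called higher than in Col-0 (6.09%), against 1.21% of all features, and 3 lower (2.61%), against 0.512%. In CMT2/cc 13 were called higher than in Col-0 (11.3%), against 0.788% of all features, and 4 lower (3.48%), against 0.877%. The median differences were 0.00 in V1200R/cc and 0.04 in CMT2/cc. All calls of both constructs against Col-0 were among the 69 members that passed the filter without the cc libraries. The 46 that passed only through the cc libraries held 0 calls. Each comparison averages the 2 lines of a construct, so a call need not hold in both lines. Among the 13, AT3G28915, AT3G26486 and AT3G26483 were higher in CMT2/cc line 19 than in line 1 by 5.26, 3.68 and 2.96. The last of these line differences was not called. These 2 comparisons share the Col-0 libraries, and the count of 4 was 2 without either Col-0 library or without CMT2/cc line 1 replicate 2, while the count of 3 was 5 without V1200R/cc line 9 replicate 2.

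AT4G01980 (chr4:863351-864259) stayed high in every line. It was at 10.6 and 9.37 TPM in V1200R/cc line 9, 8.21 and 8.09 TPM in V1200R/cc line 15, 5.77 and 9.21 TPM in CMT2/cc line 1, 8.68 and 8.16 TPM in CMT2/cc line 19, then 10.5 and 12.5 TPM in cc, against 0.0185 and 0.118 TPM in Col-0. All 10 libraries of cc and its transgenic lines lay above both wild-type libraries, by 4.07 ± 0.17 in V1200R/cc and 3.88 ± 0.17 in CMT2/cc (limma adjusted p = 1.1e-06 and 2e-06). The locus overlaps a listed transcribed region, AT4G02795, which was at 53.8 to 78.6 TPM in these 10 libraries and at 0.622 and 1.02 TPM in Col-0. All of AT4G01980 matches a stretch at chr2:9653623-9654532 with 98.8% identity, so the source of its reads could not be assigned with certainty. Its neighbour AT4G01975, 876 bases away, was at 0.310 to 0.472 TPM in V1200R/cc, 0.438 to 0.908 TPM in CMT2/cc and 1.17 and 1.11 TPM in cc, against 0 and 0.0222 TPM in Col-0.

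AT2G20460 and AT5G42645 also kept transcript in all lines. AT2G20460 (chr2:8816237-8820622) was at 2.66, 1.80, 0.583 and 1.87 TPM in V1200R/cc, 2.27, 2.51, 0.945 and 0.954 TPM in CMT2/cc and 2.07 and 1.18 TPM in cc, against 0.0192 and 0 TPM in Col-0. AT5G42645 (chr5:17090938-17095801) was at 0.841, 1.21, 2.67 and 2.02 TPM in V1200R/cc, 1.03, 1.68, 0.938 and 0.858 TPM in CMT2/cc and 1.30 and 0.978 TPM in cc, against 0.0173 and 0 TPM in Col-0. For both genes every library of cc and its transgenic lines was above both wild-type libraries, and both constructs were called higher than Col-0 (limma adjusted p between 0.00036 and 0.0042). With AT4G01980 and Copia47 they were the 4 of the 59 at 0.5 TPM or more in all 8 transgenic libraries. The calls in cc against Col-0 were lost in 7 of 34 alternatives for AT2G20460 and 2 of 34 for AT5G42645. With the overlapping TE added, AT5G42645 was at 3.37 to 5.32 TPM in V1200R/cc, against 8.37 and 9.92 TPM in cc. This sum was called lower than in cc in V1200R/cc line 9 (-1.02 ± 0.26, limma adjusted p = 0.044) and line 15 (-1.05 ± 0.26, limma adjusted p = 0.029). In CMT2/cc it also lay below cc, by -0.56 in line 1 and -0.58 in line 19, and was not called. Compared directly, the constructs differed by -0.46 ± 0.19 in this sum, which was not called (limma adjusted p = 0.11).

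A few members were lower in the lines than in the wild type. AT3G15310 was no higher than 0.0940 TPM in V1200R/cc and 0.0447 TPM in CMT2/cc, against 3.0 and 2.20 TPM in Col-0, differences of -2.53 ± 0.18 and -2.56 ± 0.18 (limma adjusted p = 2.9e-05 and 5.9e-05). A stretch at chr5:12271247-12272790, inside a centromere window, matches the whole gene with 97.5% identity, so reads may have been shared. AT2G15800 was at 0 to 0.0817 TPM in V1200R/cc and 0 to 0.111 TPM in CMT2/cc, against 0.776 and 0.697 TPM in Col-0, differences of -1.24 ± 0.19 and -1.23 ± 0.19 (limma adjusted p = 0.0044 for each construct). EXT11 (AT5G49080), annotated as an extensin, was at 7.20 to 11.2 TPM in V1200R/cc and 6.03 to 13.2 TPM in CMT2/cc, against 22.7 and 18.1 TPM in Col-0, differences of -1.08 ± 0.25 and -1.07 ± 0.25 (limma adjusted p = 0.03 and 0.025). For these 3 genes the transgenic libraries did not overlap the wild type, and the other member called lower in CMT2/cc by its own value was AT1G20390. With the overlapping TE added, AT2G15810 was also called lower than in Col-0. Its sum differed by -1.33 ± 0.18 in V1200R/cc and -1.40 ± 0.18 in CMT2/cc (limma adjusted p = 0.0018 for each construct).

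**Figure D4:**
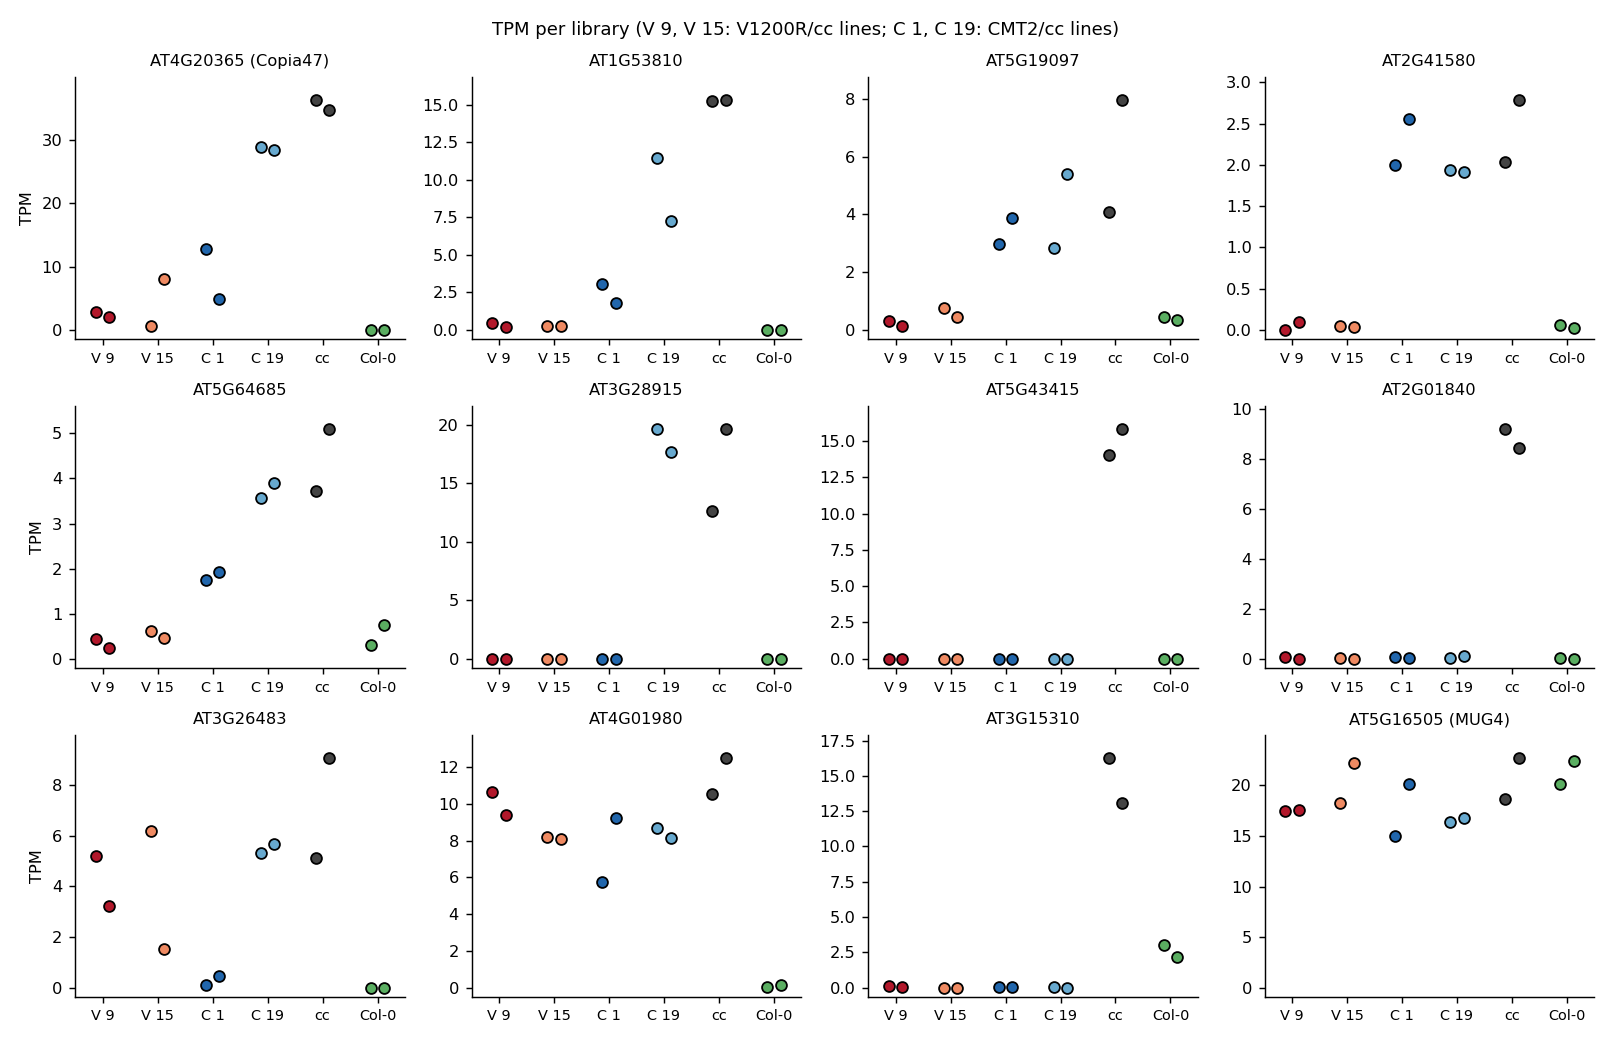
TPM of 12 members in each library, a point per library, with V 9 and V 15 for the V1200R/cc lines and C 1 and C 19 for the CMT2/cc lines. Copia47, AT1G53810, AT5G19097, AT2G41580 and AT5G64685 are lower in most V1200R/cc than CMT2/cc libraries, AT4G01980 is high outside Col-0, and MUG4 is at similar levels in all groups.

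Lines of the same construct differed at a few members. In CMT2/cc line 19, 2 members were called higher than in line 1 (1.74%), against 0.106% of all features, and 1 lower (0.87%), against 0.0678%. AT3G28915 was at 19.6 and 17.6 TPM in line 19 and listed at 0 in both libraries of line 1 (limma adjusted p = 5.6e-06), and its levels in line 19 were similar to the 12.6 and 19.6 TPM of cc. AT3G26486 (chr3:9697583-9697898) was at 9.87 and 8.02 TPM in line 19, against 0 and 0.583 TPM in line 1 (limma adjusted p = 0.0026). This gene spans 316 bases, for which 3 reads amount to 0.508 to 0.800 TPM. AT2G16680 (chr2:7232292-7236283) went the other way, listed at 0 in line 19, against 0.971 and 1.26 TPM in line 1 (limma adjusted p = 0.019), and this call was lost when either library of either line was left out, as well as in fits without a library of cc or of V1200R/cc line 9 (limma adjusted p up to 0.194). With the overlapping TE added to AT2G16680, line 19 differed from line 1 by -2.19 ± 0.19 (limma adjusted p = 0.00081). Between V1200R/cc line 15 and line 9 no member was called in limma, against 0.00847% of all features called higher and 0.0127% lower, and at an unadjusted p below 0.05 there were 4 higher and 2 lower.

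AT3G26483 and AT3G26486 lie 551 bases apart and had their lowest level in the same transgenic line. AT3G26483 (chr3:9692369-9697032) was at 5.21 and 3.23 TPM in V1200R/cc line 9, 6.18 and 1.52 TPM in V1200R/cc line 15, 0.122 and 0.454 TPM in CMT2/cc line 1, 5.33 and 5.67 TPM in CMT2/cc line 19, then 5.13 and 9.08 TPM in cc, whereas Col-0 listed it at 0. AT3G26486 was at 3.57 and 5.74 TPM in V1200R/cc line 9 and 5.43 and 5.05 TPM in V1200R/cc line 15, and listed at 0 in Col-0. In both genes CMT2/cc line 1 was the lowest of the transgenic lines and CMT2/cc line 19 the highest by its mean. AT3G50625 had the same lowest line, at 0.122 and 0.0136 TPM, against 0.788 to 4.33 TPM in V1200R/cc and 1.59 and 1.21 TPM in CMT2/cc line 19. Between line 19 and line 1 the gene's own value was not called for AT3G26483 (difference 2.96 ± 0.50, limma adjusted p = 0.093) or AT3G50625 (1.74 ± 0.50, limma adjusted p = 0.54). With the overlapping TE added to the gene both were called higher in line 19, AT3G26483 by 4.30 ± 0.16 (limma adjusted p = 2.3e-06) and AT3G50625 by 3.41 ± 0.25 (limma adjusted p = 0.00028). These genes were chosen after their values were seen.

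By the gene's own value, named TE genes were mostly steady or silent. MUG4 (AT5G16505), a MUSTANG gene, had the highest mean, at 17.4, 17.6, 18.2 and 22.2 TPM in V1200R/cc, 15, 20.1, 16.3 and 16.8 TPM in CMT2/cc, 18.6 and 22.7 TPM in cc, and 20.1 and 22.5 TPM in Col-0. The libraries spanned 15 to 22.7 TPM with no group apart from all the others, and it was called in none of the 10 comparisons. MUG5 (AT3G06940) was at 7.57 to 10.8 TPM over the 12 libraries. Of 5 MUSTANG genes 4 were tested and none was called by its own value in any comparison. The same held for the 2 tested of 7 Sadhu elements, a family of retroelements. AT3G17050, at 8.58 to 21.8 TPM, and AT3G28160, at 13.2 to 20.1 TPM, were the next highest and were not called. The 6 ONSEN copies, a Copia family known for its response to heat, ranged from 0.0108 to 0.312 TPM, and none was tested. EVD (AT5G17125), a Copia element known to move when DNA methylation is lost, was at or below 0.0782 TPM in every library. With the overlapping TE added to the gene, the Sadhu element AT1G03420 was called lower in CMT2/cc than in Col-0 (-1.12 ± 0.27, limma adjusted p = 0.029). In the same way AT4G01525 was called lower in V1200R/cc than in Col-0 (-1.17 ± 0.26, limma adjusted p = 0.025).

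Most members share their position with a TE listed as a feature of its own, which divided the reads. Of the 944, 682 covered a listed TE over at least 50% of its length, and among the 115 tested it was 106. Copia47 and its listed element AT4TE50435 together had 2.94 and 2.05 TPM in V1200R/cc line 9, 6.57 and 8.31 TPM in V1200R/cc line 15, 27.0 and 27.3 TPM in CMT2/cc line 1, 34.6 and 31.1 TPM in CMT2/cc line 19, 36.8 and 35.3 TPM in cc, and 0.0158 and 0.0237 TPM in Col-0. Summed in this way every V1200R/cc library was below every CMT2/cc library, a difference of -2.65 ± 0.37 (limma adjusted p = 0.0021), and line 15 was above line 9 by 1.41 ± 0.15 (limma adjusted p = 0.022). AT5G55896 showed the division most plainly, listed at 0 in 3 libraries and between 5.60 and 15 TPM in the other 9, while its sum with AT5TE81425 was 8.62 to 15.7 TPM in all 12.

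The same held for AT1G20390. Its own values were 0.852 to 5.26 TPM in V1200R/cc, 1.09 to 3.91 TPM in CMT2/cc, 20.6 and 23.0 TPM in cc, and 9.99 and 11 TPM in Col-0, whereas the sums were 5.58 to 6.34 TPM in V1200R/cc, 5.66 to 6.61 TPM in CMT2/cc, 21.6 and 24.5 TPM in cc, and 11.3 and 11.8 TPM in Col-0. Its own value was called lower in CMT2/cc than in Col-0 by -2.35 ± 0.52 (limma adjusted p = 0.021), and the sum differed by -0.89 ± 0.09 (limma adjusted p = 0.00061). With these sums in place of the gene's own value, 194 members could be tested, of which 103 exceeded Col-0 in cc by the same call and none was lower. The direct comparison of the constructs then gave 13 lower and 0 higher in V1200R/cc. The share of all features called was not computed with these sums, so these counts are not set against features at large.

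**Figure D5:**
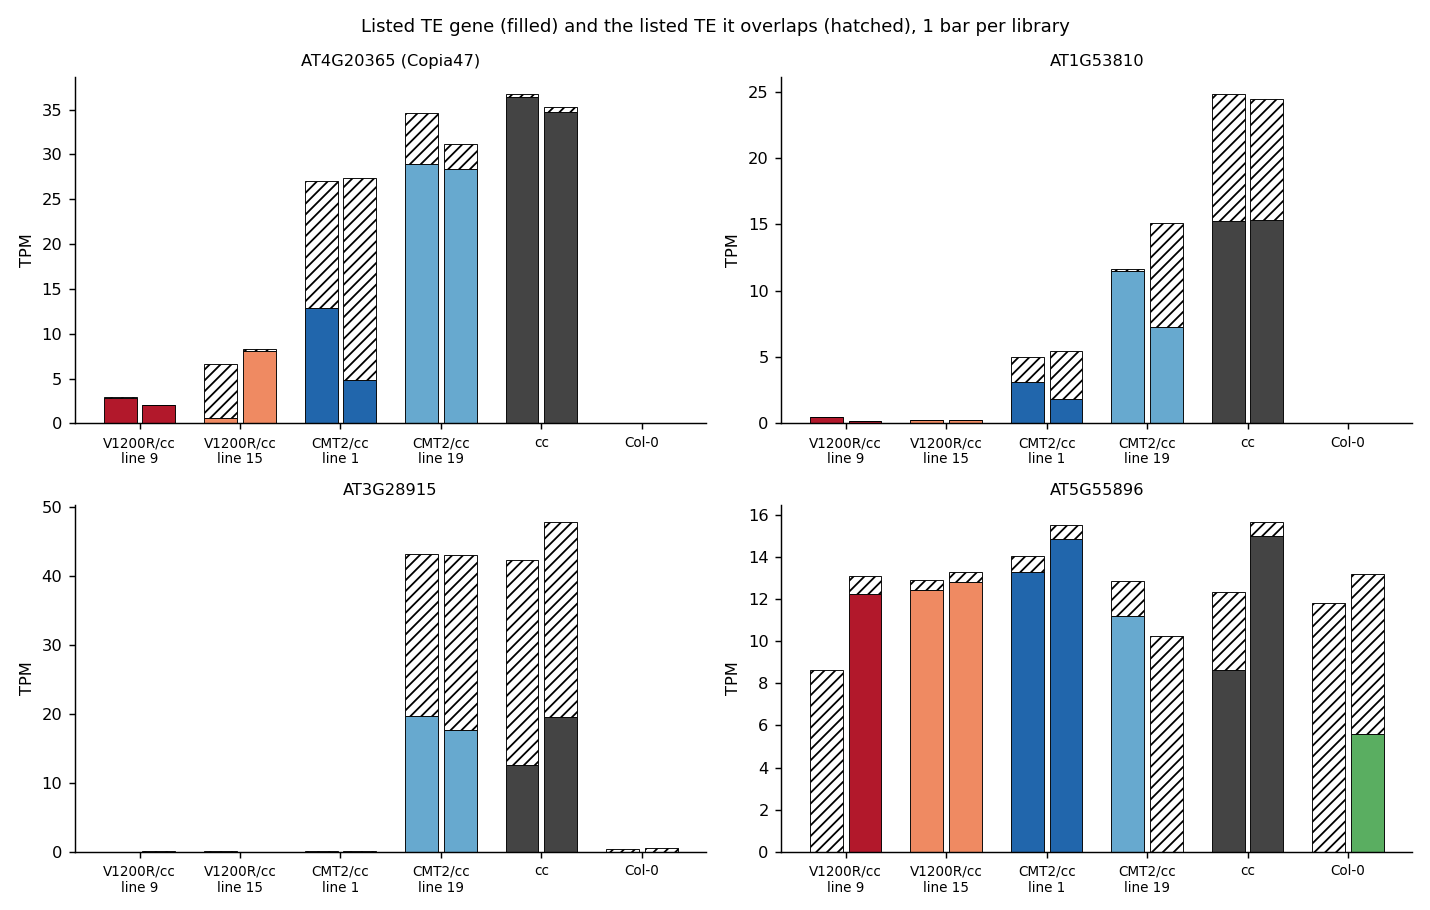
TPM listed for the TE gene (filled) and for the TE it overlaps (hatched), stacked in 1 bar per library, for 4 members. The sum for Copia47 separates the constructs, at no more than 8.31 TPM in V1200R/cc and at least 27.0 TPM in CMT2/cc, and AT5G55896 changes in its division while its sum stays between 8.62 and 15.7 TPM.

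Among the members tested, those called higher in cc tended to be long and to lie near the centromere windows. Of members of 3000 bases or more 43 of 66 tested were called higher in cc (65.2%), against 11 of 33 from 1000 to under 3000 bases (33.3%) and 5 of 16 below 1000 bases (31.2%). Within 1 Mb of a window 21 of 30 tested were called (70.0%), from 1 to 3 Mb 18 of 27 (66.7%), and beyond 3 Mb 20 of 58 (34.5%). By chromosome 12 of 26, 14 of 21, 13 of 25, 11 of 21 and 9 of 22 tested members were called on chromosomes 1 to 5. These shares are descriptions of members that passed the filter, which lets in members through cc, and length and position were not separated. Over all members, tested or not, 21 of 394 within 1 Mb of a window were called. From 1 to 3 Mb it was 18 of 219 and beyond 3 Mb 20 of 331, with no steady rise towards the windows. The share that could be tested rose with distance, from 7.61% to 12.3% and 17.5%. By length, 43 of 320, 11 of 320 and 5 of 304 were called, from the longest members to the shortest. Within 0.1 Mb of a window edge, the 71 members just outside summed to 19.2 and 27.3 TPM in cc, against 3.10 and 3.33 TPM in Col-0, and the 60 TE genes just inside summed to 49.1 and 53.4 TPM in cc, against 9.98 and 10.4 TPM in Col-0.

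The sequence and surroundings of the called and the other members are given as a description, with no test. The median number of CHG cytosines per 100 bp, counted on both strands, was 7.85 in the 59, 6.76 in the other 56 tested and 6.31 in all 944, while that of CG was 3.72, 6.05 and 5.37 and that of CHH was 29.5, 29.2 and 28.8. The median distance to the nearest protein-coding gene was 1082 bases in the 59, 310.0 bases in the other 56 and 1148.5 bases in the 944. Terminal direct repeats of at least 100 bases and 80% identity flanked 29 of the 59 (49.2%) and 14 of the other 56 tested (25%). A near-identical stretch elsewhere in the genome covered 50% or more of the gene in 16 of the 59 and 12 of the other 56, so for these members the reads could be shared between loci.

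Few genes were called in a list of silencing genes that left out CMT2 and CMT3, whose levels are given above. The list held 22 genes of DNA methylation, small RNA and chromatin silencing, such as the methyltransferase gene MET1 and the remodeller gene DDM1. Of these, 21 were tested, and none was called except the demethylase gene ROS1, which was lower in CMT2/cc line 1 than in cc. With 0.00847% to 2.29% of all features called per direction, so short a list is likely to hold few calls or none, and its count does not show that these genes kept their level. OLE1, a gene of seed oil bodies, was called higher in V1200R/cc line 15 than in cc and in V1200R/cc than in Col-0, at 0 to 8.23 TPM over all libraries. The vector of the FLAG transgenes carries an OLE1 fusion as its selection marker, so reads from the transgene and from the gene cannot be told apart.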

How the data were processed

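The 12 libraries were made from poly(A) RNA of whole seedlings. By the methods of the study, reads were trimmed with fastp, aligned to TAIR10 with HISAT2 2.0.0 and quantified with StringTie, and the deposited tables give, per feature and library, coverage (mean read depth), FPKM and TPM as the authors computed them. Strand settings and the treatment of reads with several matches were not given in the sources used here. TPM was the main measure, FPKM an alternative, and the signal called coverage gave the aligned bases. No counts were used, so limma 3.58.1 in R 4.3.3 was run on log2(TPM + 0.5), with trend, over the 23614 of 69056 features that reached 0.5 TPM in 2 or more libraries. All 6 groups entered 1 fit, except that V1200R/cc and CMT2/cc were compared in a fit of their 8 libraries. DESeq2, which the authors used, needs counts.

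Members and lists were chosen with earlier results of these data known. Members named in the text were the 15 with the largest rise in cc, up to 10 called lower and 5 called higher in V1200R/cc than CMT2/cc, up to 3 per other comparison, the 5 with the highest mean, and Copia47, EVD and ONSEN. AT2G20460, AT5G42645, AT3G15310, AT1G20390, AT2G15800, AT2G15810, AT4G01975, AT1G62460, AT4G09455, AT5G55896, AT1G58889, AT1G59265, pairs of neighbours and members with a RefSeq symbol were chosen after their values were seen. Every TE gene tested overlaps another listed feature and may share reads with it.

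Positions of all 944 members matched RefSeq TAIR10.1, from which sequences were taken, and 16 had a symbol. Repeats and near-identical stretches (95% identity over 200 bases) were found with BLASTN 2.17.0. Alternatives were the pseudocount, the filter, FPKM, quantile scaling, the replicate number as a term, the samples in the fit, the window edges, the sum with the overlapping TE, the call rule and leaving out each library. The scripts were tested on simulated data. The 2 libraries in each group limit the precision, and values below the 3-read level of a gene carry little information.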

Additional observations from a re-analysis of the deposited data

Results flagged for a closer look

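The CMT2/cc lines differed at 3 members, by a test of the difference itself in limma. AT3G28915 was higher in CMT2/cc line 19 than in line 1 by 5.26 in log2(TPM + 0.5), with 19.6 and 17.6 TPM in line 19 and 0 TPM in both libraries of line 1. AT3G26486 was higher in line 19 by 3.68, with 9.87 and 8.02 TPM in line 19 and 0 and 0.583 TPM in line 1. AT2G16680 differed by -1.69, with 0 TPM in both libraries of line 19 and 0.971 and 1.26 TPM in line 1.

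A single library stood apart from the other 3 of its construct, by Dixon's gap criterion for 4 libraries, in 3 of 30 cases examined. The criterion gives about 1 in 20 by chance for 4 independent libraries. Those of a construct are 2 from each of 2 lines, so 3 of 30 cannot be set against that rate. AT2G41580 was at 2.56 TPM in CMT2/cc line 1 replicate 2, against 1.92 to 2.00 TPM in the other CMT2/cc libraries. AT3G13270 was at 7.93 TPM in V1200R/cc line 9 replicate 2, against 0 to 1.26 TPM in the other V1200R/cc libraries. AT5G16505 (MUG4) was at 22.2 TPM in V1200R/cc line 15 replicate 2, against 17.4 to 18.2 TPM in the other V1200R/cc libraries.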

How the results depend on the processing

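Of 650 counts under alternatives, 568 stayed within 1.5 times of the count reported and 82 did not. The cause was not tested except where fewer features or libraries entered. In cc against Col-0, the 59 higher were 15 with a mean of at least 1 TPM required, 19 with the filter on libraries other than cc (chosen after seeing the data), 32 with only the libraries compared, 38 with each window widened by 1 Mb and 103 with the overlapping TE added, and 16 to 57 when 1 library was left out (42 to 58 with the same features tested), with 16 without cc replicate 1 and 20 without cc replicate 2. The lower counts against cc were, in the same order of settings, 10, 15, 44, 34 and 101 for V1200R/cc line 9 (56 reported, 13 to 56 with 1 library left out), 11, 13, 43, 33 and 101 for V1200R/cc line 15 (53 reported, 13 to 54), 9, 10, 17, 26 and 91 for CMT2/cc line 1 (45 reported, 8 to 44 or 31 to 45 with the same features), and 4, 5, 11, 23 and 81 for CMT2/cc line 19 (40 reported, 4 to 36 or 24 to 38 with the same features). The lowest of each came without a cc library, which removed members from the test; with the features kept as with all libraries (chosen after seeing the data) only the count of CMT2/cc line 19 moved, to 24 without its replicate 1. The higher counts against cc, all 0, became 1 in each line with the overlapping TE added, 1 in CMT2/cc line 1 and V1200R/cc line 15 with only the libraries compared, and 0 to 1 in both when 1 library was left out (CMT2/cc line 19 replicate 1 or 2 or V1200R/cc line 9 replicate 1).

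For V1200R/cc against CMT2/cc, the 7 lower were 13 with a pseudocount of 0.1, 13 with the overlapping TE added, 13 by adjusted p alone, 4 with no filter and 4 to 7 when 1 library was left out, and the 0 higher were 1 in a fit of all 6 groups and 4 by adjusted p alone. For CMT2/cc against Col-0 the 13 higher were 22 with a pseudocount of 0.1, 26 with the overlapping TE and 11 to 14 with 1 library left out, and the 4 lower were 2 with no filter and 2 to 4. For V1200R/cc against Col-0 the 7 higher were 3 with only the libraries compared and 5 to 7 with 1 library left out, and the 3 lower were 5 with the overlapping TE and 2 to 5. Between CMT2/cc lines the 3 calls were 7 with the overlapping TE, 1 with only the libraries compared and 2 to 4, and between V1200R/cc lines the 0 calls were 3 with the overlapping TE and 0 to 1 (V1200R/cc line 15 replicate 2 or line 9 replicate 1 left out).

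With the replicate block in the fit, the 7 lower in V1200R/cc became 4, with adjusted p of 0.061 for Copia47, 0.066 for AT3G13270 and 0.061 for AT3G21050 in limma, and the 59 higher in cc became 56. Same-numbered libraries did not deviate together, with correlations between -0.07 and 0.11 over 15 pairs of groups, so the numbers were not taken as pairs. Of 1664 values of named members under alternatives, 1547 kept their call, 116 lost it, 1 gained one and none reversed; AT1G62460 in cc lost it in 25 of 33. Features overlapping no other could not be tested alone, since no TE gene remained. Depth limits members below 0.5 TPM.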

Other observations

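AT1G62460 (chr1:23118657-23123058) and AT4G09455 (chr4:5987419-5991819) are 99.6% identical over their whole length, so their reads could not be assigned with certainty. AT1G62460 was at 0.0165 and 0 TPM in V1200R/cc line 9 and 0.603 and 1.99 TPM in V1200R/cc line 15, and AT4G09455 was at 0.0165 and 0 TPM in line 9 and 0.942 and 1.18 TPM in line 15. Neither was called between the V1200R/cc lines by its own value in limma (adjusted p = 0.53 for AT1G62460 and 0.19 for AT4G09455). With the overlapping TE added to the gene both were called higher in line 15, AT1G62460 by 2.14 ± 0.19 (limma adjusted p = 0.0096) and AT4G09455 by 1.63 ± 0.19 (limma adjusted p = 0.032).

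AT1G58889 and AT1G59265, near-identical copies on chromosome 1, were between 0.171 and 0.606 TPM and between 0.289 and 0.684 TPM in all 12 libraries by their own values. With the overlapping TE added, they were at 1.21 to 1.37 TPM in Col-0 and 1.98 to 3.19 TPM in all other libraries. These sums were higher in cc than in Col-0 by 0.70 ± 0.16 and 0.66 ± 0.16 (limma adjusted p = 0.035 and 0.043), below the difference of 1 needed for a call. MUG6 (AT5G48965), a MUSTANG gene, was listed at 0, 2.08, 2.52 and 2.07 TPM in V1200R/cc, 3.12, 3.06, 0 and 2.59 TPM in CMT2/cc, and 0 TPM in both libraries of cc and of Col-0, and overlaps a protein-coding gene. Its sum with the overlapping TE was 3.70 to 4.33 TPM in V1200R/cc, 3.78 to 4.59 TPM in CMT2/cc, 3.68 and 4.12 TPM in cc, and 4.30 and 2.95 TPM in Col-0, with no sum at 0.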
